A study of Mus musculus with 8 samples.

Results

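The genes described here are 36 genes of the unfolded protein response and the integrated stress response. These genes were compared between fractions of mouse mammary tumours that are labelled as ICAM1high and ICAM1low neutrophils. They were taken by gene name from a deposited table of 54532 genes: the stress sensors of the IRE1, ATF6 and PERK branches, the transcription factors behind them, targets of ATF4, and the chaperones and degradation factors of the endoplasmic reticulum (ER). All 36 names were found, in 37 rows, since Ddit3 is listed under a second gene ID that overlaps the first and held 0 counts in every library. All 36 passed the filter on low counts, which left 14051 genes for testing.

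The ICAM1high and the ICAM1low fraction were each represented by 4 libraries, labelled as biological replicates 1 to 4 and as untreated. Tumours had been started by injecting 2208L cells, a mouse mammary tumour line, into the fat pad of Balb/c mice, and were dissociated at a diameter of 1 cm before the neutrophils were sorted by flow cytometry for ICAM1, an adhesion molecule also called CD54. The labels give neither the age of the mice, nor the gate that defined neutrophils, nor whether replicates came from separate mice, so p-values measure the spread between these samples. Both fractions came out of dissociated tumours of a single line, so neither is an unstressed control.

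When misfolded proteins gather in the ER, the sensors IRE1 (encoded by Ern1), ATF6 and PERK (Eif2ak3) are released from the chaperone BiP (Hspa5). IRE1 splices Xbp1 mRNA into the form that encodes an active transcription factor, ATF6 is cut by site proteases into one, and PERK phosphorylates the translation factor eIF2alpha. The kinases GCN2 (Eif2ak4), which senses amino acid shortage, and HRI (Eif2ak1), which senses haem shortage and mitochondrial stress, phosphorylate the same site, which slows translation in general but raises that of Atf4. In mouse tumours PERK and CHOP (Ddit3) are known for their part in the suppressive function of myeloid cells. Counts per gene show neither Xbp1 splicing nor translation, so the values below are transcript levels only.

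The members divide by role into arms that are known to be controlled through different promoter elements. Promoter sequences from RefSeq (GRCm38.p6) were matched by symbol for 33 members, with 35 entries; Atf6, Ppp1r15b and Manf had none. In the 250 bases before the annotated start, the ER stress response element, spelled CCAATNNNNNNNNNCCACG and searched on both strands, was found in 8 of the 33 members and in 0.113% of all 32851 promoter entries. The 9 stretches, 2 of them from Hsp90b1, are shown because most belong to chaperones whose transcripts differed between the fractions, beside Creld2, which was not called, and the ligase gene Syvn1; they run 5′ to 3′ on the strand of the gene, and capitals mark the fixed letters of the element.
Hspa5 (chr2:34772013-34772055, plus strand): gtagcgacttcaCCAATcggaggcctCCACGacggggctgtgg
Hsp90b1 (chr10:86705626-86705668, minus strand): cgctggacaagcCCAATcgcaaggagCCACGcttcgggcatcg
Hsp90b1, further copy (chr10:86705521-86705563, minus strand): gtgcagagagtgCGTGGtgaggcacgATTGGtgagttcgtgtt
Calr (chr8:84847063-84847105, minus strand): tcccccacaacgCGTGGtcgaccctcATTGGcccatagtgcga
Canx (chr11:50325788-50325830, minus strand): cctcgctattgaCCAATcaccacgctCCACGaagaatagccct
Pdia6 (chr12:17266479-17266521, plus strand): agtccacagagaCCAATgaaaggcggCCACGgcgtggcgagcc
Dnajc3 (chr14:118937815-118937857, plus strand): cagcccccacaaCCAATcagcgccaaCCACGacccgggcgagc
Creld2 (chr15:88819508-88819550, plus strand): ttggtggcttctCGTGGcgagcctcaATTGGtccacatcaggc
Syvn1 (chr19:6046520-6046562, plus strand): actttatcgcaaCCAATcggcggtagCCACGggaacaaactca

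The C/EBP-ATF response element, through which ATF4 and its partners such as CHOP are known to act, was searched as TGATGNAAN on both strands. It was found in 4 of the 33 members, Asns, Chac1, Nupr1 and Herpud1, and in 3.44% of all entries. The element TGACGTCA was found in Ppp1r15a and in 1.55% of entries, the ER stress response element II in Herpud1 and in 0.0304%, and TGACGTGG in 0 members and 0.563%. These matches are descriptions of letters in a window, and ICAM1high transcripts of genes that share an element moved in both directions, as given below. The 3 stretches below are shown for Asns, whose transcripts differed between the fractions, and for Chac1 and Nupr1, which carry the same element; capitals mark its fixed letters.
Asns (chr6:7693212-7693244, minus strand): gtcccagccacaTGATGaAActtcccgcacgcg
Chac1 (chr2:119351036-119351068, plus strand): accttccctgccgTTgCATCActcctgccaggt
Nupr1 (chr7:126625561-126625593, minus strand): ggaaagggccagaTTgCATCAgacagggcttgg

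Library totals were 10328575 to 22751975 counts. ICAM1high replicate 1 and ICAM1low replicate 4 stood apart from their groups on the second principal component, which held 22.2% of the variance. Toward its other end, ICAM1low replicate 1 was at -61.5, against -12.7 and -27.0 for ICAM1low replicates 2 and 3. Icam1 itself averaged 1460 ± 202 CPM (the usual scaling of counts to a common library size, here totals adjusted by the TMM method) in ICAM1high and 848 ± 214 CPM in ICAM1low (SD, n = 4). The cell type markers also differed. The summed CPM of 12 macrophage markers ran between 10420 and 17210 in ICAM1high and between 1226 and 1880 in ICAM1low, with 11 of 12 higher and Cd68 not past the threshold. That of 12 neutrophil markers ran between 8280 and 11240 in ICAM1high and between 37330 and 75460 in ICAM1low, with 12 of 12 lower, although none of them was at 0 in either fraction. Epithelial markers summed to between 110.9 and 163.5 CPM in ICAM1high and between 257.7 and 458.8 CPM in ICAM1low, with 3 of 5 tested genes lower. B and plasma cell markers, which matter here because plasma cells are rich in Xbp1, summed to 33.7 CPM in ICAM1high replicate 1 and 12.4 to 16.2 CPM in the other 3 ICAM1high libraries, against 23.3 to 32.4 CPM in ICAM1low. Of its 3 tested genes, Sdc1 was lower (9.4 CPM in ICAM1high and 24.5 CPM in ICAM1low, log2 fold change -1.38), Cd79b was higher (4.12) and Cd79a was not called, and Tnfrsf17 was at 0 in ICAM1low. Sdc1 thus made up most of the ICAM1low sum, so that sum says little about the other genes of the list. Dendritic cell markers summed to 7.39 to 14.9 CPM in ICAM1high and 4.40 to 9.91 CPM in ICAM1low, with Xcr1 at 0 in ICAM1low. Of their 4 tested genes, 0 were called. T and NK cell markers ran between 22.6 and 29.3 CPM in ICAM1high and between 13.8 and 21 CPM in ICAM1low. Of their 2 tested genes, 1 was higher and 1 lower. Those of fibroblasts and endothelium ran between 69.1 and 117.5 CPM in ICAM1high and between 44.2 and 70 CPM in ICAM1low, with 2 of 6 tested genes higher and 0 lower. In bulk samples a different mix of cells and a different level per cell cannot be told apart, and the part of these marker differences in the results below was not tested.

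The stress-response genes did not move as a block. On the TMM scale, the ICAM1high fraction held less transcript of Xbp1, Ddit3, Atf4 and most ATF4 and CHOP targets. Both regulatory subunits of the eIF2alpha phosphatase were lower too. The ICAM1high fraction held more of most ER chaperones and folding enzymes, while BiP and Dnajb9 were lower. The calls of Atf4 and BiP were each lost in 11 of 21 alternative settings, and their sign changed in 1 other. Of the 36 members, 10 were higher and 13 were lower in ICAM1high by the quasi-likelihood test of edgeR, at an adjusted p below 0.05 over all genes tested. The same test called 22.6% of all genes higher and 19.6% lower (42.1% in either direction). The median log2 fold change was -0.10 over the members and 0.08 over all genes. The groups did not overlap in CPM for 11 members that were higher and 12 that were lower in ICAM1high, against 23.4% and 18% of all genes (41.5% in either direction). The role groups differed in direction: 9 of 13 chaperones and folding enzymes were higher and 2 lower, whereas 4 of 5 ATF4 and CHOP targets, 3 of 6 transcription factors and 2 of 2 phosphatase subunits were lower and 0 higher.

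The split between higher and lower rests on how libraries are scaled. Scaling by library totals alone, in place of TMM, moved the median of all genes to 0.76, a shift of 0.68, and 89% of all calls were then higher in ICAM1high, against 53.6%. Under that scaling 19 members were higher and 4 lower, beside 48.5% and 5.97% of all genes, and the 4 that stayed lower were Xbp1, Ddit3, Sesn2 and Ppp1r15a. Fold changes are given below on the TMM scale, relative to that shift. Ratios between members within a library are free of the scaling. The ratios given here set members with unlike fold changes against each other, so a gap between the fractions restates those differences and is no separate test. The summed counts of the 13 chaperones and folding enzymes were 13.3 ± 2.43 times those of the 5 ATF4 and CHOP targets in ICAM1high and 4.38 ± 0.594 times in ICAM1low (SD, n = 4). The lowest ICAM1high library was at 9.73 and the highest ICAM1low library at 4.88, so the ranges did not overlap. On the TMM scale the gap lay mainly in the targets, which summed to 172.1 to 255.8 CPM in ICAM1high and 460.8 to 561.7 CPM in ICAM1low. The summed chaperones and folding enzymes overlapped, at 2408 to 2731 CPM in ICAM1high and 1938 to 2460 CPM in ICAM1low.

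**Figure D1:**
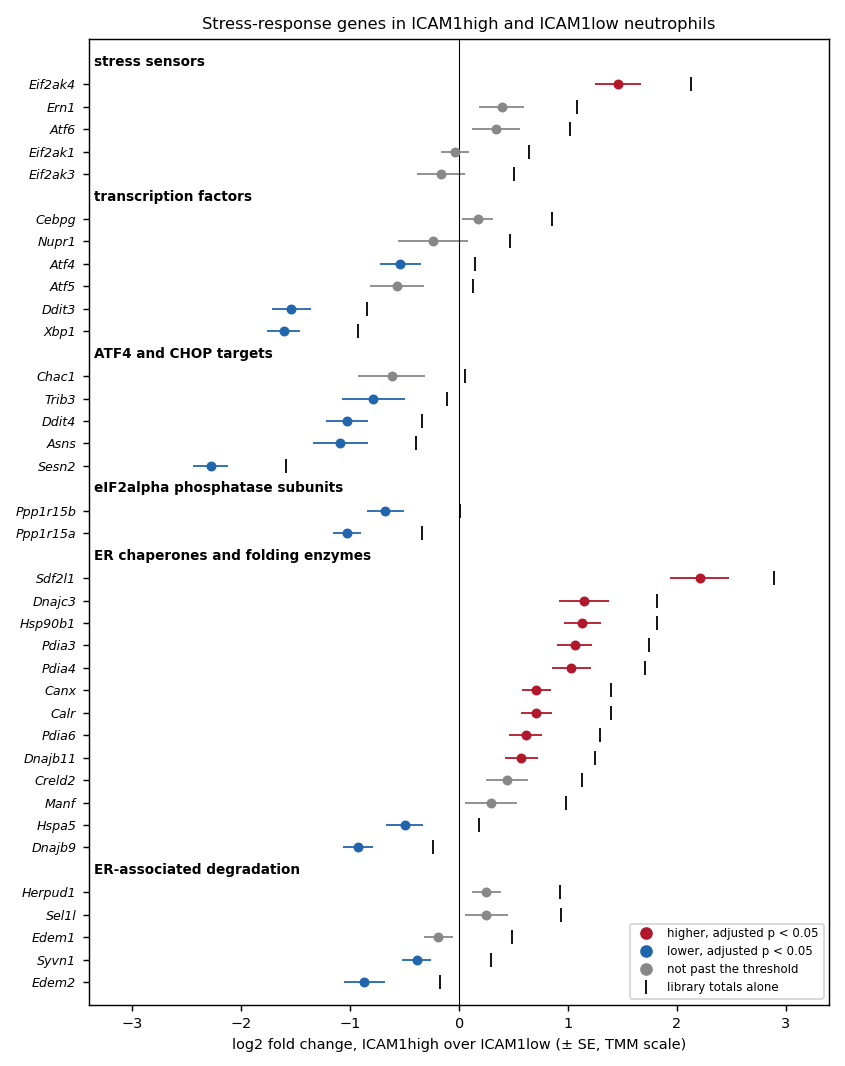
Log2 fold changes of the 36 members, ICAM1high over ICAM1low, grouped by role. Points and bars are the TMM-scaled estimate ± SE, coloured by call, and black ticks are the estimate under library totals alone; the 9 called chaperones on the higher side lie right of 0, and Xbp1, Ddit3, Sesn2 and Ppp1r15a stay left of 0 under both scalings.

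Among the stress sensors, the amino acid sensor GCN2 was the member that differed. Eif2ak4 measured 13.4, 15.1, 17.0 and 18.2 CPM in ICAM1high replicates 1 to 4, against 5.94, 6.97, 5.98 and 4.24 CPM in ICAM1low replicates 1 to 4. Every ICAM1high library was above every ICAM1low library, although Eif2ak4 was also the least abundant sensor per length. The log2 fold change was 1.46 (SE 0.21, adjusted p = 0.000472, edgeR quasi-likelihood test), with the same call under all 21 alternative settings.

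The sensors of the ER membrane did not pass the threshold on the TMM scale. Under library totals Ern1 at 1.08 (adjusted p = 0.00355) and Atf6 at 1.02 (adjusted p = 0.00774) passed, and 4 of the 5 sensors were higher. Ern1, which encodes IRE1, measured 42.8 to 70.3 CPM in ICAM1high and 38.4 to 63.0 CPM in ICAM1low. The overlap came from ICAM1low replicate 1 at 63.0 CPM, which lay above ICAM1high replicates 1 and 2 at 42.8 and 59.9 CPM. The other 3 ICAM1low libraries held 38.4 to 42.2 CPM, below all ICAM1high libraries. The fold change of Ern1 on the log2 scale was 0.39 (adjusted p = 0.165), and 0.58 (adjusted p = 0.0391) without ICAM1low replicate 1. Atf6 was at 79.9 to 144.9 CPM in ICAM1high and 67.3 to 115.3 CPM in ICAM1low, and its difference of 0.34 (log2) did not pass (adjusted p = 0.248). Eif2ak3, the PERK gene, was at -0.17 (SE 0.22, adjusted p = 0.572) and Eif2ak1, the HRI gene, at -0.04 (SE 0.13, adjusted p = 0.846). Eif2ak1 shares 487 exonic bases with Aimp2 on the other strand, which held 12.1% as many counts; whether reads were counted by strand was not stated in any source used here. Within a library, Eif2ak4 held 0.49 ± 0.0576 counts per Eif2ak3 count in ICAM1high and 0.16 ± 0.0206 in ICAM1low (SD, n = 4).

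Among the transcription factors, those that act downstream of IRE1 and of PERK were both lower. Xbp1 (ENSMUSG00000020484, mm10 chromosome 11, 5520659 to 5525893) measured 148.5, 126.5, 115 and 137 CPM in ICAM1high replicates 1 to 4, against 337, 415, 440.4 and 418 CPM in ICAM1low replicates 1 to 4. The ICAM1high values all lay far under the lowest ICAM1low value. The means were 132 ± 14.2 CPM in ICAM1high and 403 ± 45 CPM in ICAM1low (SD, n = 4). The log2 fold change came to -1.61 (SE 0.15, adjusted p = 3.33e-05), and it was -0.93 under library totals. The gene counts join the spliced and unspliced forms of Xbp1.

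CHOP, the stress factor associated with cell death, followed the same order. Ddit3 (ENSMUSG00000025408, mm10 chromosome 10, 127290774 to 127296288) measured 69.4, 46.6, 54.4 and 47.1 CPM in ICAM1high and 151, 130, 161 and 190 CPM in ICAM1low replicates 1 to 4. The fractions did not overlap, and the log2 fold change was -1.54 (SE 0.18, adjusted p = 0.000143). Exons of Ddit3 and of Mars, on the other strand, share 68 bases, and Mars held 27.8% as many counts. Atf4, the factor whose translation rises when eIF2alpha is phosphorylated, differed less, at 223, 196, 165 and 175 CPM in ICAM1high against 210, 288, 248 and 360 CPM in ICAM1low. ICAM1high replicate 1 lay above ICAM1low replicate 1, so the groups overlapped. The log2 fold change of Atf4, -0.54 (SE 0.19, adjusted p = 0.0399), lost the call without any of ICAM1high replicates 2, 3 and 4 and ICAM1low replicates 2, 3 and 4 (adjusted p between 0.0555 and 0.112), was not past the threshold with a replicate block (adjusted p = 0.115), and turned to 0.15 (adjusted p = 0.486) under library totals. Within a library, Ddit3 held 0.287 ± 0.0413 counts per Atf4 count in ICAM1high and 0.587 ± 0.119 in ICAM1low (SD, n = 4).

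The remaining factors did not pass. Atf5, an ATF4 relative that acts in mitochondrial stress, averaged 27.9 ± 7.57 CPM in ICAM1high and 41.3 ± 12.3 CPM in ICAM1low, and the log2 fold change was -0.57 (adjusted p = 0.0863). Without ICAM1high replicate 1 it was at -0.81 (adjusted p = 0.0213). Atf5 shares 82 exonic bases with Nup62 on the other strand, which held 101% as many counts. Cebpg, a dimer partner of ATF4, was at 0.17 (adjusted p = 0.354). Nupr1, a stress-induced chromatin protein, was at -0.24 (adjusted p = 0.575), with 20.95 to 32.2 CPM in ICAM1high and the wider range of 16.5 to 53.3 CPM in ICAM1low.

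**Figure D2:**
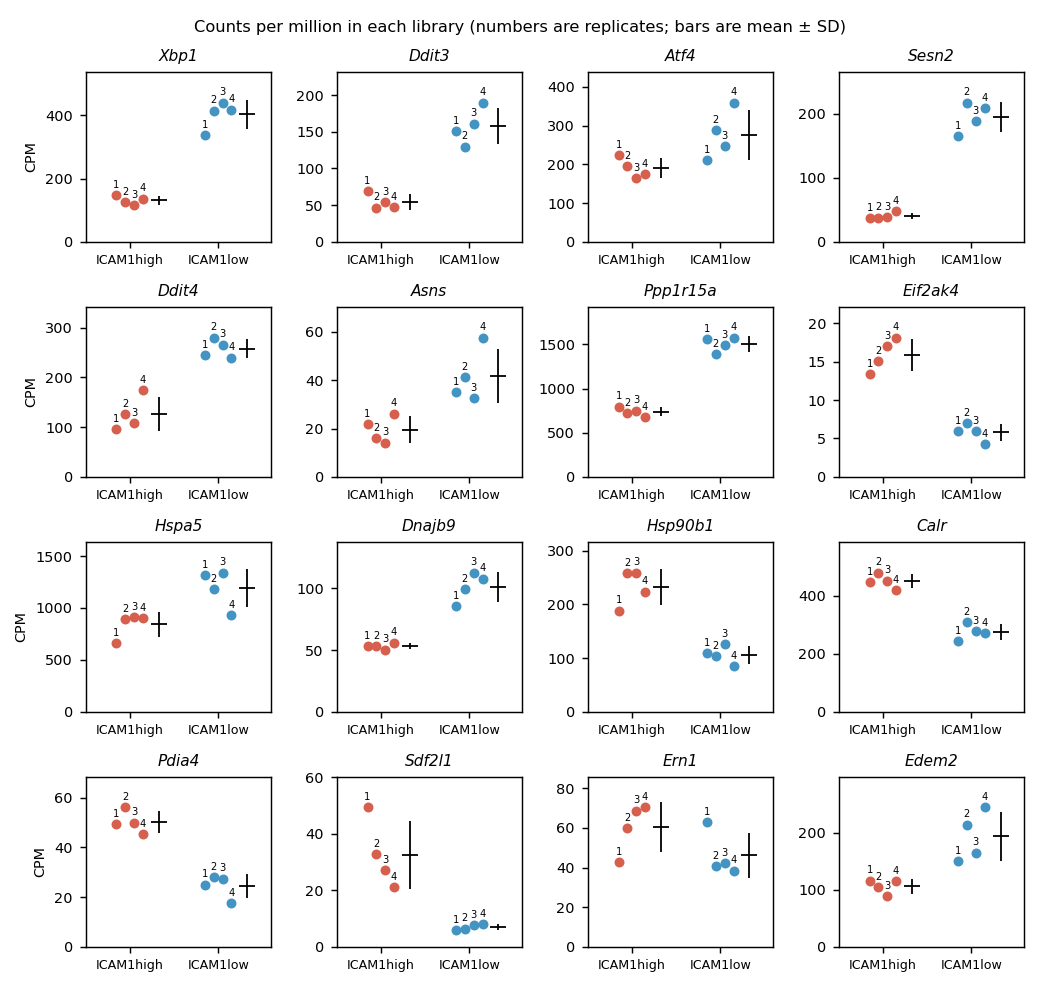
CPM of 16 members in each library, with replicate numbers, and the mean ± SD (n = 4) beside each group. Xbp1, Ddit3, Sesn2 and Ppp1r15a lie lower in every ICAM1high library, Eif2ak4, Hsp90b1, Calr, Pdia4 and Sdf2l1 lie higher, and Atf4 and Ern1 overlap.

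The targets of ATF4 and CHOP were lower in ICAM1high in 4 of 5 cases. Sesn2, which encodes a sestrin that restrains the growth kinase complex mTORC1 when leucine is short, had the most negative fold change of the 36 members. Its transcripts (ENSMUSG00000028893, mm10 chromosome 4, 132492032 to 132510501) stood at 36.8, 38.0, 38.9 and 47.6 CPM in ICAM1high and at 165, 218, 189 and 209 CPM in ICAM1low replicates 1 to 4. The highest ICAM1high library held well under the lowest ICAM1low library, and the log2 fold change was -2.28 (SE 0.16, adjusted p = 5.78e-06), or -1.59 under library totals. Ddit4, which encodes REDD1, another brake on mTORC1, averaged 126 ± 34.4 CPM in ICAM1high and 258 ± 18.7 CPM in ICAM1low (SD, n = 4), a log2 fold change of -1.03 (adjusted p = 0.00197). In ICAM1high its values spread between 96.4 CPM in replicate 1 and 174 CPM in replicate 4, all below the ICAM1low range of 239.6 to 280.1 CPM.

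Asns, asparagine synthetase, whose promoter element is printed above, measured 21.9, 16.0, 14.2 and 26.2 CPM in ICAM1high against 35, 41.4, 32.6 and 57.7 CPM in ICAM1low. The groups did not overlap, and the log2 fold change was -1.09 (SE 0.25, adjusted p = 0.00541), which was -0.40 (adjusted p = 0.16) under library totals. Trib3, a pseudokinase induced by CHOP, was at 8.84 ± 3.17 CPM in ICAM1high and 15.3 ± 3.80 CPM in ICAM1low (SD, n = 4) with overlap. The Trib3 difference of -0.79 (log2, adjusted p = 0.0467) was lost without any of ICAM1high replicates 2, 3 and 4 and ICAM1low replicates 2, 3 and 4 (adjusted p between 0.0754 and 0.117) and with a replicate block (adjusted p = 0.127). Chac1, which degrades glutathione, was the least abundant of the targets at 1.91 to 5.02 CPM in ICAM1high and 4.46 to 5.62 CPM in ICAM1low. Its log2 fold change of -0.62 did not pass (adjusted p = 0.132), and it was -0.94 (adjusted p = 0.0271) without ICAM1high replicate 1.

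Both subunits that direct protein phosphatase 1 to eIF2alpha, and so end the translation block, were lower. Ppp1r15a, or GADD34, the stress-inducible subunit, was the most abundant member per length in either fraction. Libraries of ICAM1high held 795, 724, 749 and 678 CPM (replicates 1 to 4), against 1561, 1386, 1490 and 1578 CPM in ICAM1low. The groups stood well apart. The log2 fold change came to -1.03 (SE 0.13, adjusted p = 0.000232), and it was -0.34 but still past the threshold under library totals. Ppp1r15b, or CReP, the constitutive subunit, measured 96.1, 124, 136 and 148 CPM in ICAM1high and 238, 183, 200 and 187 CPM in ICAM1low. Its log2 fold change of -0.68 (SE 0.17, adjusted p = 0.00912) came to 0.01 (adjusted p = 0.975) under library totals and had an adjusted p of 0.0501 with a replicate block.

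Ppp1r15a and Atf3 are also known to respond quickly to cell handling. A list of 18 dissociation and immediate-early genes had 14 lower and 3 higher in ICAM1high, a median log2 fold change of -1.27, and summed levels of 15680 to 19780 CPM in ICAM1high and 44510 to 48850 CPM in ICAM1low. Junb, Dusp1 and Btg2, an AP-1 subunit, a MAP kinase phosphatase and an antiproliferative factor, were at -1.76, -1.82 and -1.71. Those that rose were Hspa1a, Hspa1b and Hsph1 at 0.79, 0.57 and 0.90, named after their values were seen. Hspa1a and Hspa1b are near-identical copies between which reads may be split. Of the other heat shock genes in the list, Dnajb1 and Dnaja1 were lower, at -1.22 and -0.69, and Hspa8, at 0.38, was not called. Under library totals 10 of the 18 genes were lower and 4 higher. The part of these genes in the stress-response differences was not tested.

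ER chaperones and folding enzymes formed the arm with most genes higher, although their summed CPM overlapped between the fractions. Sdf2l1, a lumenal partner of BiP and its J-domain helpers, had the largest positive fold change of the 36 members. It held 49.3, 32.7, 27.0 and 21.2 CPM in ICAM1high replicates 1 to 4, and 6.02, 6.42, 7.77 and 7.99 CPM in ICAM1low. The ICAM1high libraries spread widely, with replicate 1 above the rest, but all lay above ICAM1low, and the log2 fold change was 2.21 (SE 0.27, adjusted p = 0.000153). In replicates 3 and 4 alone it was at 1.57, and the difference from replicates 1 and 2 had an unadjusted p of 0.0224 (adjusted p = 0.417).

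Hsp90b1, or GRP94, the ER form of HSP90 that folds Toll-like receptors and integrins, measured 189, 259, 259.5 and 224 CPM in ICAM1high and 109, 104, 126 and 84.8 CPM in ICAM1low. All ICAM1high libraries lay above all ICAM1low libraries (log2 fold change 1.13, SE 0.17, adjusted p = 0.000586). Dnajc3, which encodes P58IPK, a co-chaperone of BiP and an inhibitor of PERK, stood at 41.6, 61.8, 56.8 and 53.9 CPM in ICAM1high and at 25.2, 31.7, 24.6 and 15.2 CPM in ICAM1low (log2 fold change 1.15, adjusted p = 0.00257). Both carry the ER stress response element printed above, Hsp90b1 with 2 copies.

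The lectin chaperones of the calnexin cycle and the disulfide isomerases moved by similar amounts. Calr, calreticulin, measured 447, 479, 451 and 419.9 CPM in ICAM1high against 244, 308, 278 and 269.6 CPM in ICAM1low, and Canx, calnexin, averaged 253 ± 13.6 CPM in ICAM1high and 155 ± 14.0 CPM in ICAM1low (SD, n = 4). Both had a log2 fold change of 0.71, with adjusted p-values of 0.00217 and 0.00205. Their replicates were among the tightest of the members, and no library of a fraction fell into the range of the other. Pdia3 (ERp57), which works with calreticulin and calnexin on glycoproteins, was at 1.06 (adjusted p = 0.000641), Pdia4 at 1.03 (adjusted p = 0.00118) and Pdia6, which also tunes IRE1, at 0.61 (adjusted p = 0.0075). Pdia4 held 45.5 to 56.1 CPM in ICAM1high and 17.5 to 28.1 CPM in ICAM1low, while Xbp1 was lower. Within a library, Pdia4 held 0.385 ± 0.0618 counts per Xbp1 count in ICAM1high and 0.0615 ± 0.0139 in ICAM1low (SD, n = 4). Dnajb11, a J-domain co-chaperone of BiP, was at 0.57 (adjusted p = 0.0139), without overlap between the fractions, and did not pass without ICAM1high replicate 2 (adjusted p = 0.0576) or with a replicate block (adjusted p = 0.054).

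BiP, the most abundant chaperone of the list per length, was lower on the TMM scale, unlike the 9 that were higher. Hspa5 (ENSMUSG00000026864, mm10 chromosome 2, 34771970 to 34777547) measured 661, 893, 908 and 902 CPM in ICAM1high, against 1313, 1183, 1341 and 932 CPM in ICAM1low replicates 1 to 4. The groups came close, with ICAM1high replicate 3 at 908 CPM and ICAM1low replicate 4 at 932 CPM. Its log2 fold change of -0.50 (SE 0.17, adjusted p = 0.0374) did not pass without ICAM1high replicate 1, 2 or 3 or ICAM1low replicate 1, 2 or 3 (adjusted p between 0.0507 and 0.101) or with a replicate block (adjusted p = 0.0958), and it turned to 0.18 (adjusted p = 0.468) under library totals. Ratios to BiP within a library do not depend on the scaling. Calr held 0.544 ± 0.0927 counts per Hspa5 count in ICAM1high and 0.236 ± 0.0478 in ICAM1low, and Hsp90b1 held 0.277 ± 0.0195 in ICAM1high and 0.089 ± 0.00487 in ICAM1low (SD, n = 4). The lowest Hsp90b1 ratio in ICAM1high was 0.248 and the highest in ICAM1low was 0.0942.

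Dnajb9, or ERdj4, a J-domain protein that is a known XBP1 target and returns BiP to IRE1, was the other chaperone gene that was lower. It measured 53.0, 53.1, 50.3 and 56.1 CPM in ICAM1high, and 85.3, 99.4, 113 and 108 CPM in ICAM1low. The ICAM1high values were nearly equal and all below ICAM1low, and the log2 fold change was -0.93 (SE 0.14, adjusted p = 0.000552), which came to -0.24 (adjusted p = 0.191) under library totals. Sdf2l1 held 0.616 ± 0.232 counts per Dnajb9 count in ICAM1high and 0.0695 ± 0.00391 in ICAM1low (SD, n = 4). Creld2 and Manf, secreted factors induced by ER stress, were at 0.44 (adjusted p = 0.0832) and 0.29 (adjusted p = 0.364). Manf shares exonic bases with Rbm15b and Dcaf1, which held 27.3% and 10.6% as many counts. Macrophage markers were also higher in ICAM1high and neutrophil markers lower, as given above, and their part in the chaperone differences was not tested.

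**Figure D3:**
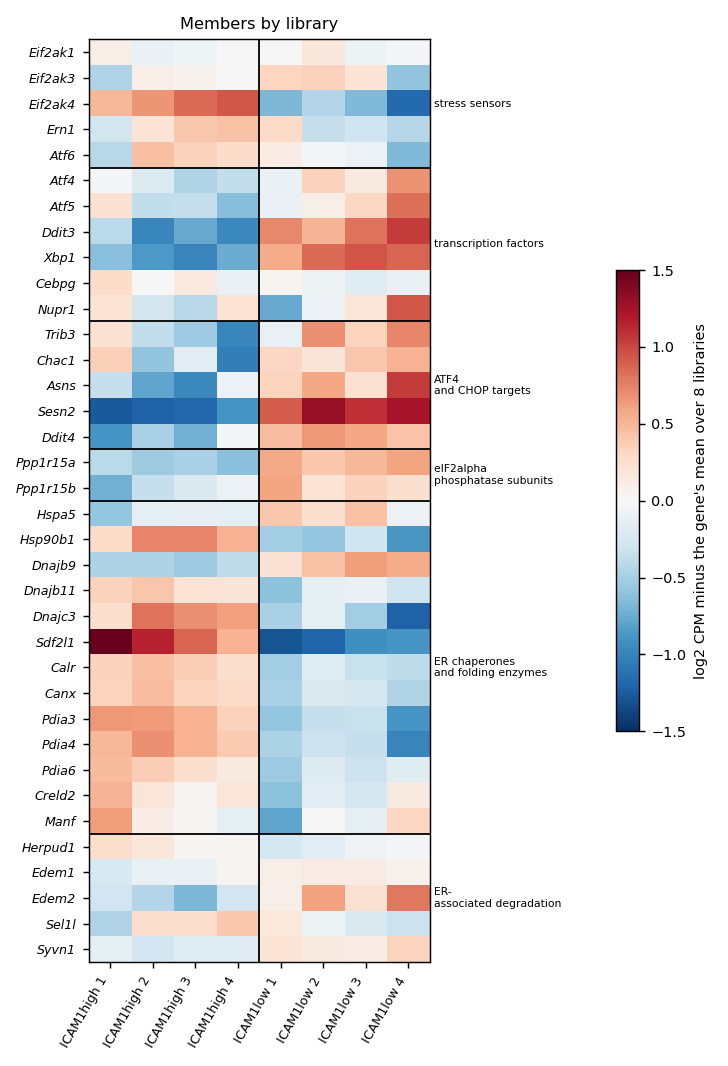
Log2 CPM of each member minus its mean over the 8 libraries, with ICAM1high replicates 1 to 4 left of ICAM1low replicates 1 to 4 and roles separated by lines. The block of chaperones is red in ICAM1high apart from Hspa5 and Dnajb9, and the block from Ddit3 and Xbp1 down to Ppp1r15b is mostly blue there.

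Factors of ER-associated degradation, which extract misfolded proteins for the proteasome, were lower or did not pass on the TMM scale, with 0 of 5 higher and 2 lower. Under library totals the direction turned, with 3 higher (Herpud1 at 0.93, Sel1l at 0.94 and Edem1 at 0.49) and 0 lower. Edem2, which trims mannose from misfolded glycoproteins, measured 116, 105, 88.6 and 115.6 CPM in ICAM1high and 149.9, 214, 165 and 244 CPM in ICAM1low. The groups did not overlap (log2 fold change -0.87, SE 0.19, adjusted p = 0.00417), but the value was -0.18 (adjusted p = 0.427) under library totals. Syvn1, the ubiquitin ligase HRD1, averaged 54.4 ± 2.34 CPM in ICAM1high and 71.5 ± 5.14 CPM in ICAM1low (SD, n = 4). Its log2 fold change of -0.39 (adjusted p = 0.0307) did not pass without ICAM1high replicate 2, 3 or 4 or ICAM1low replicate 1, 2 or 4 (adjusted p between 0.0511 and 0.0939) or with a replicate block (adjusted p = 0.105), and was 0.29 under library totals. Syvn1 shares 91 exonic bases with Mrpl49, which held 16.5% as many counts.

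Sel1l, the scaffold that holds HRD1, was at 0.25 (SE 0.20, adjusted p = 0.328), Herpud1, a membrane protein of the same complex, at 0.25 (SE 0.13, adjusted p = 0.166), and Edem1 at -0.19 (SE 0.13, adjusted p = 0.246). For Herpud1 the fractions lay next to each other without overlap, at 67.1 to 79.2 CPM in ICAM1high and 55.1 to 65.3 CPM in ICAM1low. Edem1 ran between 177 and 214 CPM in ICAM1high and between 217 and 227 CPM in ICAM1low. Separation of the ranges alone was thus not matched by a call for these genes.

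Levels between genes were compared as CPM per kb of the deposited gene length. Ppp1r15a led in both fractions with 251 in ICAM1high and 512 in ICAM1low, followed by Hspa5 with 199 and 282. In ICAM1high the next were Calr at 156, Pdia3 at 85.8, Atf4 at 80.5 and Ddit4 at 72.0 CPM per kb. In ICAM1low the next were Ddit4 at 147, Xbp1 at 124, Atf4 at 117 and Calr at 95.4 CPM per kb. Xbp1 thus ranked 10 in ICAM1high at 40.6 and 4 in ICAM1low at 124 CPM per kb, and Sesn2 was at 11.6 in ICAM1high and 56.2 in ICAM1low. In ICAM1low, Xbp1 at 124 ± 13.8 and Atf4 at 117 ± 27.1 CPM per kb did not differ beyond their spread (SD, n = 4), nor did Pdia3 at 85.8 ± 8.25 and Atf4 at 80.5 ± 10.9 in ICAM1high. At the low end, Chac1 at 1.99 and Eif2ak4 at 2.13 were the least abundant in ICAM1high, and Eif2ak4 at 0.776 and Chac1 at 3.08 in ICAM1low.

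**Figure D4:**
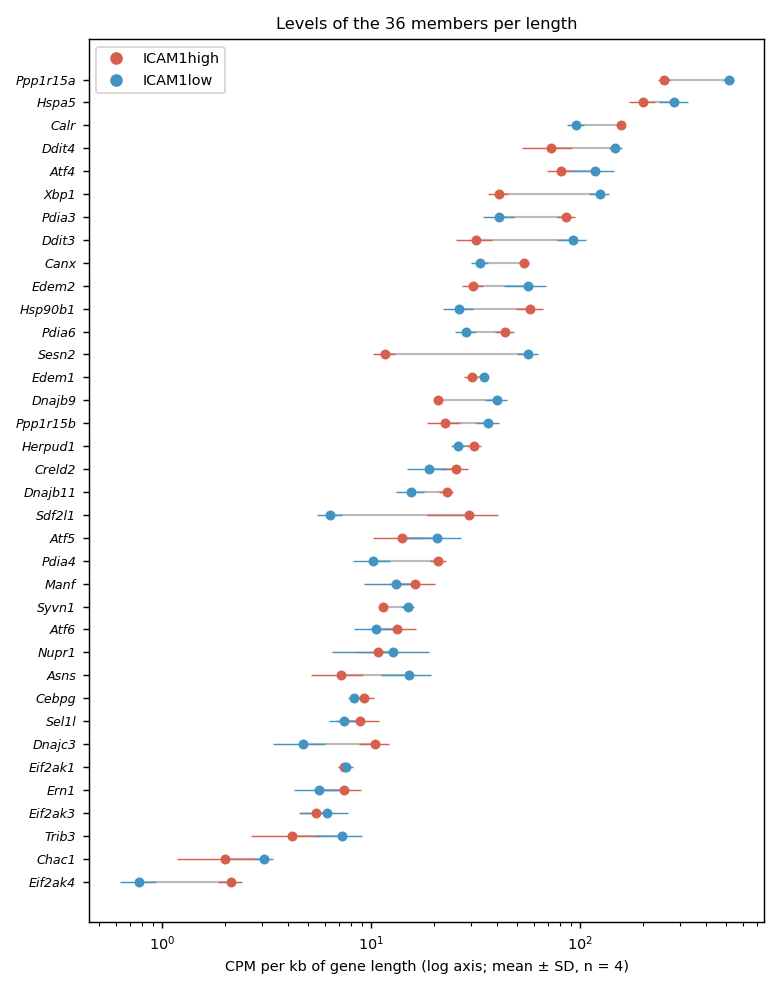
CPM per kb of gene length for the 36 members on a log axis, as mean ± SD (n = 4) for ICAM1high and ICAM1low, ordered by the mean of both. Ppp1r15a and Hspa5 lead in both fractions, and the widest gaps are those of Sesn2, higher in ICAM1low, and Sdf2l1, higher in ICAM1high.

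The libraries that stood apart did so among these genes too. ICAM1high replicate 1 was the highest of its group for 18 members, with a median length of 2725.5 bases, and the lowest for 12, with a median length of 5810 bases. ICAM1low replicate 4 was the highest for 15 members, with a median of 2358 bases, and the lowest for 12, with a median of 5583.5 bases. ICAM1low replicate 1 went the other way, as the lowest for 16 members with a median of 2714.5 bases. The median over all 36 was 3355.5 bases. Such a gap was not limited to the libraries that stood apart. ICAM1high replicate 4 was the highest for 9 members, with a median of 5594 bases, and the lowest for 13, with a median of 2937 bases. Gene length thus moved with the rank of these and other libraries, and its part in single values was not tested. Without both ICAM1high replicate 1 and ICAM1low replicate 4, 11 members were higher and 15 lower, against 25.5% and 24.5% of all genes. Creld2 at 0.44, Atf5 at -0.58 and Chac1 at -0.88 then passed (adjusted p = 0.0338, 0.0107 and 0.0275), and no member lost its call.

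The rest of the pathway was read from lists of related genes. Their counts stand beside shares over all genes of 22.6% higher and 19.6% lower on the TMM scale. Under library totals these shares were 48.5% and 5.97%, and with a replicate block 16.1% and 14.1%. Further ER folding factors were mostly higher, with 12 of 23 tested genes higher and 3 lower and a median log2 fold change of 0.68. Sil1, which recharges BiP with ATP, rose by 2.19 (adjusted p = 4.08e-05), to 11.8 CPM in ICAM1high against 2.59 CPM in ICAM1low, and Prkcsh, a subunit of glucosidase II, rose by 0.83. P4hb, the founding disulfide isomerase and far more abundant, was lower, at 1155 to 1451 CPM in ICAM1high and 2863 to 4602 CPM in ICAM1low (log2 fold change -1.46, adjusted p = 0.00015). The other 2 that were lower, named after their values were seen, were the oxidase Ero1l at -1.40 and Fkbp11 at -1.63. Under library totals 20 were higher and 2 lower. The summed CPM of the list went the other way on the TMM scale, at 2261 to 2894 in ICAM1high and 4178 to 6644 in ICAM1low.

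The machinery that brings proteins into the ER and glycosylates them had 7 of 24 genes higher and 1 lower, with a median of 0.28, and 20 higher and 0 lower under library totals. Ddost and Rpn2, subunits of the oligosaccharyltransferase, rose by 1.57 and 1.2, and Spcs3, of the signal peptidase, rose by 1.49. Of 19 further genes of ER-associated degradation, 2 were higher and 3 lower with a median of 0.05, and 13 were higher and 0 lower under library totals. Erlec1, a lectin, and Vcp, the ATPase that pulls out substrates, rose by 1.48 and 0.94, and the VCP adaptor Ubxn4 was at -0.68, which came to 0.00 under library totals. Among 18 ER-phagy receptors and ER-to-Golgi genes, 6 were higher and 4 lower, against 10 and 1 under library totals and 3 and 3 with a replicate block. The cargo receptor Lman1 and the coat subunit Sec24d rose by 1.51 and 1.75, and Retreg1, an ER-phagy receptor also called FAM134B, was at -1.10.

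Further sensors and regulators had 5 of 17 higher and 6 lower on the TMM scale, but 7 higher and 0 lower under library totals. Rtcb, the ligase that joins the Xbp1 exons after IRE1 has cut them, rose by 2.12 (SE 0.16, adjusted p = 8.51e-06), with 67.9 to 91.4 CPM in ICAM1high and 16.7 to 21.3 CPM in ICAM1low. Mbtps2, the site protease that releases ATF6, rose by 1.64 (adjusted p = 0.000238). Ptpn1, a phosphatase of the ER membrane, was at -0.94, and at -0.26 (adjusted p = 0.137) under library totals. Thus, in ICAM1high, Rtcb was higher where Xbp1 itself was lower.

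A list of ATF4-driven genes, mainly amino acid enzymes and transporters, moved in both directions. Of 18 tested, 5 were higher and 8 lower, with a median of -0.67. The 5 higher were all enzymes or transporters: Psat1, Shmt2, Mthfd2, Aldh18a1 and Slc7a1. Of the 8 lower, Phgdh, Slc7a11 and Slc3a2 were such genes, and Atf3, Jdp2, Gdf15, Vldlr and Eif4ebp1 were not. They were sorted in this way after their values were seen. Jdp2 and Atf3, relatives of the AP-1 factors, were at -1.63 (adjusted p = 4.08e-05) and -0.95 (adjusted p = 0.000997), and Phgdh, which opens serine synthesis, was at -1.89 (adjusted p = 0.0015). Under library totals 7 were higher and 3 lower. Of the cytosolic aminoacyl-tRNA synthetases, many of which ATF4 also drives, 11 of 17 were higher, the other way from Asns, with a median of 0.56. The 1 that was lower was Cars at -0.5, named after its value was seen, and 5 were not called. Under library totals 15 were higher and 0 lower, and with a replicate block 6 were higher and 0 lower. Iars, Wars and Kars, which charge the tRNAs of isoleucine, tryptophan and lysine, rose by 1.38, 1.35 and 0.97. Mars, for methionine, was left out because the list held it under another symbol. Of 10 genes for eIF2, eIF2B and related factors, 4 were higher and 0 lower, against 10 and 0 under library totals and 2 and 0 with a replicate block. Eif2s1, which encodes eIF2alpha itself, rose by 1.67 (adjusted p = 7.44e-05), with 33.4 to 45.6 CPM in ICAM1high and 10.1 to 14.4 CPM in ICAM1low. Eif2s3x rose by 1.04, but not past the threshold with a replicate block (adjusted p = 0.0708), and Eif2a, at 0.69, overlaps Serp1, which held 1220% as many counts.

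**Figure D5:**
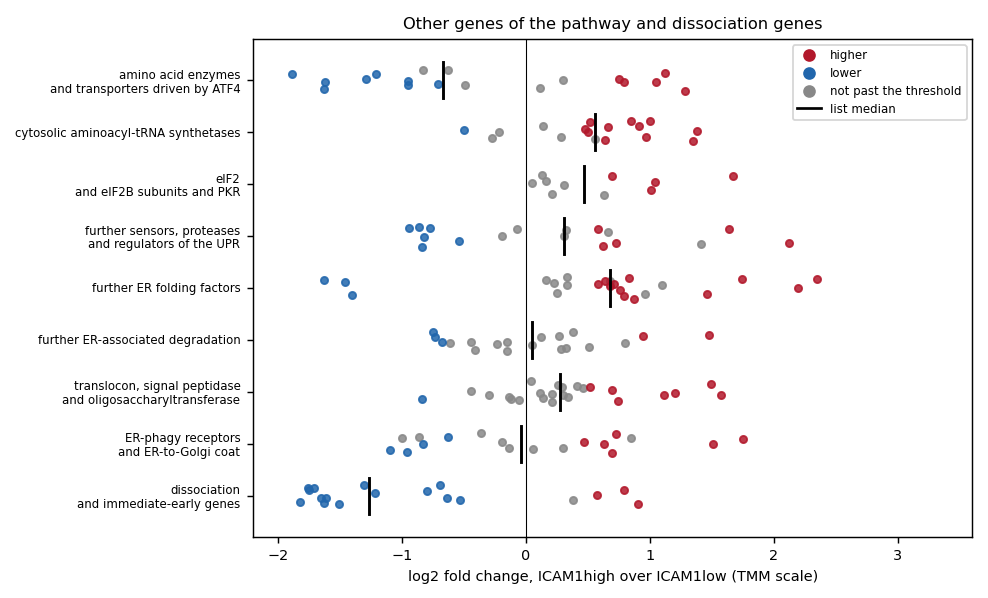
Log2 fold changes, ICAM1high over ICAM1low on the TMM scale, of the tested genes in 8 further lists of the pathway and in the dissociation list, coloured by call, with list medians as black lines. Folding factors and tRNA synthetases lie mostly right of 0 and dissociation genes mostly left.

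The library names carry numbers of 1 run for replicates 1 and 2 and of another for replicates 3 and 4, whose meaning the labels do not give. Within replicates 1 and 2 alone 5 members were higher and 6 lower, against 11.9% and 9.89% of all genes; within replicates 3 and 4 alone 7 were higher and 8 lower, against 11.4% and 11% of all genes. Xbp1, Ddit3, Sesn2, Ppp1r15a, Eif2ak4, Hsp90b1, Pdia3, Pdia4 and Sdf2l1 were called in both subsets, in the same direction, and under every other alternative setting too. A difference between the subsets was called by the edgeR interaction test for 0 of 14051 genes at an adjusted p below 0.05 (1606 genes, or 11.4%, at an unadjusted p below 0.05), and for 0 genes by DESeq2 and by limma-voom. Among the members, Atf5 and Sdf2l1 had an unadjusted interaction p below 0.05.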

How the data were processed

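The authors deposited 1 table of raw read counts for 8 mRNA-seq libraries, each made from 100 ng of total RNA per the labels' protocols, with gene names, mm10 positions and the gene length, an other quantity that the authors gave in bases. Per the submitters' processing notes HISAT2 and mm10 were used; for the counting tool, annotation release and strand setting, no statement was found in the sources used here. Totals of 10328575 to 22751975 counts set the precision of low values. Chi-square values between libraries of a group, divided by their degrees of freedom, were 12.4 to 212.

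Genes were filtered with filterByExpr, scaled by TMM and compared in edgeR 4.0.16 (R 4.3.3) by its quasi-likelihood test, without a replicate block, with Benjamini-Hochberg adjustment over 14051 genes and a threshold of 0.05. SEs were derived from the fold change and the square root of F. Alternatives were RLE and upper-quartile scaling, library totals, no filter or at least 50 counts in 4 libraries, DESeq2 1.42.0 and limma-voom (limma 3.58.1). Further ones were a replicate block, robust dispersion, the subset by library number as a covariate, each subset by itself, and libraries left out. Shared exon bases came from GENCODE M21 (mm10), where all genes checked were found. The members and lists were chosen with earlier results of these data known. Of each other list up to 3 genes with the smallest p and an average log2 CPM of at least 1 were named. Same-numbered libraries had correlations of -0.57, 0.21, 0.18 and -0.31 after removal of the group means. With 4 libraries per group and outlying libraries among them, these values cannot tell whether same-numbered libraries came from the same tumour. The main fit was unpaired because the labels state no pairing beyond the shared numbers, and the replicate block was run as an alternative.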

Additional observations from a re-analysis of the deposited data

Results flagged for a closer look

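Among 142 sets of 4 libraries examined, 6 held a library far from the other 3, and chance gives about 1 in 20. In ICAM1high, replicate 1 was the lowest for Hspa5, at 661.4 CPM against 892.9 to 908 CPM in the other 3, and for Eif2s3x, at 31.27 CPM against 66.8 to 70.5 CPM. The summed level of the 5 stress sensors was 206.1 CPM in the same library, against 293.7 to 297.1 CPM. Dusp1 was highest there, at 3117 CPM against 2110 to 2257 CPM. In ICAM1low, replicate 1 held the highest Ern1 level, 63.02 CPM against 38.4 to 42.2 CPM, and the lowest Eif2a level, 11.23 CPM against 14.5 to 14.6 CPM.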

How the results depend on the processing

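Of the 23 members called, 18 had the same call in each of the 8 fits without 1 library, 17 with a replicate block, 14 under library totals and 9 under all 21 alternatives. With a replicate block 9 members were higher and 8 lower, against 16.1% and 14.1% of all genes. Under library totals 19 members were higher and 4 lower, 106 and 16 genes of the other lists, and 6818 and 839 of all genes, against 10 and 13, 55 and 40, and 3172 and 2748 as reported. Then the called Atf4, Ppp1r15b, Hspa5, Syvn1 and Ubxn4 changed sign to 0.15, 0.01, 0.18, 0.29 and 0.00, and the uncalled Eif2ak1, Eif2ak3, Atf5, Nupr1, Chac1 and Edem1 to 0.64, 0.50, 0.13, 0.47, 0.05 and 0.49; the size of the shift follows from the scaling itself. In replicates 1 and 2 alone, with fewer samples, 5 members were higher and 6 lower, 21 and 19 of the other lists, and 1708 and 1416 of all genes. In replicates 3 and 4 alone 8 members were lower, 26 genes of the other lists were higher, and 1658 and 1604 of all genes were called. Uncalled genes also changed sign in replicates 1 and 2 alone (Ern1 -0.02, Nupr1 0.36, Sel1l -0.09), in replicates 3 and 4 alone (Eif2ak3 0.13, Manf -0.20), and with 1 or 2 libraries left out (Eif2ak1 between -0.12 and 0.02, Nupr1 between -0.45 and 0.12). With no filter, 667 genes had a called interaction with the subset by library number, of which the cause was not tested. The settings for this count were chosen after the data had been seen. Fits without 1 library gave 9 to 11 members higher and 9 to 14 lower, 40 to 59 and 38 to 41 genes of the other lists, and 2345 to 3403 and 2157 to 2927 of all genes.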
